A study of Mus musculus with 15 samples.

Results

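The genes described are Adgre1, Lyz2, Kit, Cd34 and Flt3, 5 markers by which macrophages and the progenitors they come from are told apart. They were taken by symbol from a table of 17030 genes measured by bulk RNA-seq in 15 mouse libraries, and each of the 5 was found. By RefSeq on GRCm38.p6, Adgre1 (gene identifier 13733 in the table) lies at chr17:57358581-57483529, Lyz2 (17105) at chr10:117277541-117282272, Kit (16590) at chr5:75574987-75656722, Cd34 (12490) at chr1:194938821-194961292 and Flt3 (14255) at chr5:147330741-147400489. Values are for whole genes, not for single exons or transcripts. The labels give all 15 libraries as primary cells of bone marrow, in 5 groups of 3. The progenitors are labelled as wild-type, untreated progenitor cells. The other 4 groups are labelled as macrophages. Among them, the bone marrow-derived macrophages (BMDM) and the Hoxb8 macrophages are wild type and untreated. The CAR macrophages are labelled as expressing, and treated with, a chimeric antigen receptor (CAR), an engineered receptor that directs a cell to a chosen antigen. The control-CAR macrophages carry the same labels for a control CAR. The series is about macrophages made from myeloid progenitors, and its design text compares the CAR group with a control. The antigen, the way the receptor was introduced, any sharing of a clone or animal between libraries, and the age and strain of the mice are all not given in the sources used. Separate cultures or animals behind the 3 libraries of a group are not stated, so p-values measure only how far these samples spread, and that spread may be technical.

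Macrophages arise from bone marrow progenitors through a series of steps in which surface receptors for early growth factors are lost and products of the mature phagocyte are made. Kit, the receptor for stem cell factor, and Flt3, the receptor for FLT3 ligand, are tyrosine kinases that carry survival and growth signals in early blood cells. Cd34 encodes a sialomucin on the surface of stem and progenitor cells, and it is also made by endothelium and by mast cells. Adgre1 encodes F4/80, an adhesion G protein-coupled receptor used as a marker of mouse macrophages, and Lyz2 encodes lysozyme, an antibacterial enzyme of macrophages, monocytes and neutrophils. Hoxb8 is a homeobox gene whose enforced activity is used to keep myeloid progenitors growing in culture.

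The upstream sequences of 4 of the 5 genes were at hand from RefSeq, and Adgre1 had no entry. They are shown because the genes differ so widely between groups. Each was cut so that it ends before the first start annotated by either RefSeq or GENCODE, and all are on GRCm38.p6, written 5′ to 3′ along the gene. Capitals mark a match, on either strand, to 1 of 4 short words. The word GAGGAA is read by ETS factors such as PU.1. RUNX factors, regulators of blood cell formation, read TGTGGT. For factors of the GATA family the word was GATAA, while for the box bound by the general transcription machinery at some starts it was TATAAA. No 2 of these words overlapped in a window. The windows are those of Lyz2 (chr10:117282322-117282522, minus strand), of its neighbour and near copy Lyz1 (chr10:117292869-117293118, minus strand), of Kit (chr5:75574737-75574915, plus strand), of Cd34 (chr1:194938571-194938818, plus strand) and of Flt3 (chr5:147400490-147400739, minus strand).
Lyz2: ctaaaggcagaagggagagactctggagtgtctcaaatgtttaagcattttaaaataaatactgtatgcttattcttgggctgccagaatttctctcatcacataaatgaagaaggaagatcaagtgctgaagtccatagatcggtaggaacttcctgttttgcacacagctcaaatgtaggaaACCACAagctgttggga
Lyz1: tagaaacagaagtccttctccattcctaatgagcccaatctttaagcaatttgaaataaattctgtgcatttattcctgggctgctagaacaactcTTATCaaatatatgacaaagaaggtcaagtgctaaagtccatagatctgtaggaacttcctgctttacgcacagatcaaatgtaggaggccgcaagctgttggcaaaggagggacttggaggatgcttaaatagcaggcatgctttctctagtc
Kit: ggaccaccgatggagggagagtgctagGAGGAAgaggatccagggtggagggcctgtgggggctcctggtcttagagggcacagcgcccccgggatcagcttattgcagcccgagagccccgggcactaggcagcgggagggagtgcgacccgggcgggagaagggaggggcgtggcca
Cd34: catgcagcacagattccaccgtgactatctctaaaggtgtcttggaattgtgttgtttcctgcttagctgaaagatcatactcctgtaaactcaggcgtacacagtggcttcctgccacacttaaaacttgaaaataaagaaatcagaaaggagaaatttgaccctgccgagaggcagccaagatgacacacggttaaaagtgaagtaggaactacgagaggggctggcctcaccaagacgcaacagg
Flt3: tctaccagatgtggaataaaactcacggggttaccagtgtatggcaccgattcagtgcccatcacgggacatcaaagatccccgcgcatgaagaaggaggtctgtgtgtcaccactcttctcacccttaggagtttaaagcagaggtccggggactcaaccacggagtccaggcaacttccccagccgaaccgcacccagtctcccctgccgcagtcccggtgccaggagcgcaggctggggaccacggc
The Lyz2 window held 1 RUNX word, on the minus strand, a word found in 11.7% of 27025 mouse promoters over the same stretch. The Kit window held 1 ETS word, found in 17.0% of promoters over its stretch. The Lyz1 window held 1 GATA word, found in 23.0%. In the Cd34 and Flt3 windows none of the 4 words was found. The Kit window was the richest in G and C of the 5, at 69.3%, and the Lyz2 window the poorest, at 40.3%. A match is a description of the letters only.

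All values below were made from 16962839 to 19221681 estimated counts per library. Levels are given as FPKM, fragments scaled by transcript length and library size, which can be compared between genes. Differences between groups were tested on the estimated counts with edgeR's quasi-likelihood test in 1 fit over all 15 libraries, and a gene is called when its Benjamini-Hochberg adjusted p over the 11793 genes tested is under 0.05. All 5 genes passed the filter on low values (1 FPKM in 3 libraries), Flt3 and Adgre1 only through groups in which they were high. The fit scales libraries by TMM (trimmed mean of M-values), whose factors were 1.46 to 1.47 in the progenitors, 1.05 in the CAR macrophages and 0.824 to 0.960 in the other libraries. A modelled fold therefore differs from the ratio of FPKM, and both are given where they differ much. With library totals in place of TMM the median change of all genes moved by -0.74 (log2) between Hoxb8 macrophages and progenitors, by 0.31 between CAR and control-CAR macrophages and by -0.17 between Hoxb8 macrophages and BMDM. Among genes called in these comparisons, the share that was higher in the first group was 53.0%, 53.3% and 45.5% with TMM, and 30.3%, 70.8% and 31.1% with library totals. On log2(TPM + 1) the shifts were -0.91, 0.45 and -0.27, and the shares 24.5%, 80.6% and 20.2%.

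**Figure D1:**
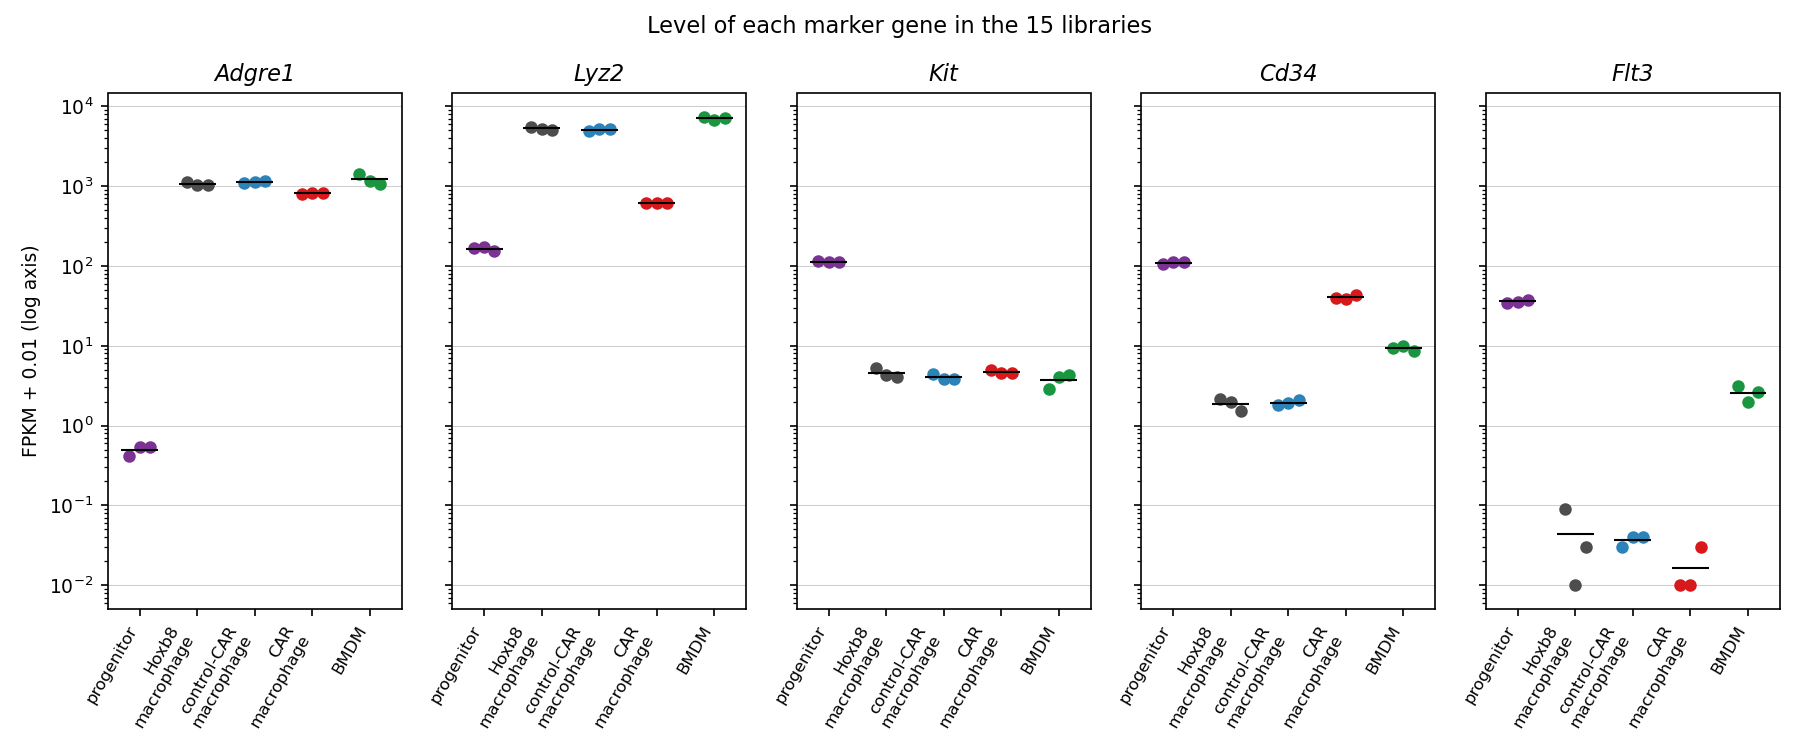
FPKM of Adgre1, Lyz2, Kit, Cd34 and Flt3 in each of the 15 libraries, with 0.01 added so that values of 0 can be drawn on the log axis. Points are libraries, lines are group means of 3 libraries. Adgre1 separates the progenitors (0.41 to 0.53 FPKM) from every macrophage library (802 to 1430 FPKM), whereas Cd34 in the CAR macrophages (38.7 to 43.8 FPKM) lies between the progenitors and the other macrophages.

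Adgre1 was the sharpest divider of progenitors from macrophages. In the progenitor libraries it was at 0.41, 0.53 and 0.53 FPKM, from 20, 28 and 27 counts. The Hoxb8 macrophages had 1135, 1039 and 1037 FPKM. The control-CAR macrophages had 1091, 1137 and 1165 FPKM. The ranges of those macrophage groups overlapped, and both were far above the progenitors. The CAR macrophages had 802, 810 and 822 FPKM. The BMDM had 1430, 1152 and 1058 FPKM, the first library being the highest of all 15. Thus the CAR macrophages were the lowest of the 4 macrophage groups, with no overlap with any of them, and the other 3 overlapped with each other. In bulk RNA, fewer cells of a type and less RNA per cell cannot be told apart. In counts, the Hoxb8 macrophages were above the progenitors by 11.92 on the log2 scale (SE 0.17, adjusted p = 1.12e-20 by edgeR's quasi-likelihood test, Benjamini-Hochberg adjusted), with 75 counts over the 3 progenitor libraries against 165575. The CAR macrophages were 1.73-fold lower than the control-CAR macrophages (log2 change -0.79, SE 0.097, adjusted p = 5.75e-07 by the same edgeR test), and lower in 3 of 3 libraries. The ratio of their mean FPKM was smaller, at 1.39-fold. Against the Hoxb8 macrophages the CAR macrophages were lower by 0.75 on the log2 scale (SE 0.097, adjusted p = 1.09e-06, edgeR), a call that was lost on log2(TPM + 1), at -0.14. Between Hoxb8 macrophages and BMDM the modelled log2 change was -0.023 (SE 0.096, adjusted p = 0.843 by edgeR's quasi-likelihood test), and between control-CAR and Hoxb8 macrophages 0.040 (SE 0.096, adjusted p = 0.895 by edgeR's quasi-likelihood test). Neither was called. The first BMDM library carried weight here: without it, control-CAR macrophages stood above BMDM by 0.18 (adjusted p = 0.0267, edgeR), against 0.016 with it (adjusted p = 0.893, edgeR). On log2(TPM + 1) that comparison was called the other way, at -0.25 (adjusted p = 0.0221, limma).

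Lyz2 was the most abundant of the 5 in every library other than those of the CAR macrophages, and in the CAR macrophages it was far below its level in the other macrophages. The BMDM had 7350, 6798 and 7066 FPKM, which placed Lyz2 5th or 6th among all genes of each library. The Hoxb8 macrophages had 5567, 5236 and 5107 FPKM. The control-CAR macrophages had 4828, 5139 and 5114 FPKM. These last groups overlapped, and both lay below the BMDM. The CAR macrophages had only 609, 619 and 608 FPKM, ranks 174 to 180. The progenitors had 168, 171 and 155 FPKM, so that Lyz2, unlike Adgre1, was well above 0 in them. The 3 CAR libraries lay between the progenitors and all other macrophages with no overlap on either side. They were 10.1-fold below the control-CAR macrophages (log2 change -3.34, SE 0.073, adjusted p = 1.97e-17 by edgeR's quasi-likelihood test, Benjamini-Hochberg adjusted) and 5.20-fold above the progenitors (log2 change 2.38, SE 0.072, adjusted p = 3.97e-16 by the same edgeR test). The corresponding ratios of mean FPKM were 8.21 for the first and, with progenitors over CAR macrophages, 0.269 for the second. The Hoxb8 macrophages exceeded the progenitors by 5.85 (log2, SE 0.083, adjusted p = 7.86e-21, edgeR) and were 1.19-fold below the BMDM (log2 change -0.26, SE 0.067, adjusted p = 0.00240, edgeR).

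Neutrophils make lysozyme too, and the sum of neutrophil genes was likewise highest in the BMDM and, among the macrophages, lowest in the CAR group. The summed FPKM of 9 neutrophil markers (S100a8, S100a9, Ltf, Camp, Ngp, Retnlg, Cxcr2, Mmp8 and Ly6g) was 6072 to 12404 in the BMDM, 1744 to 2155 in the control-CAR macrophages, 1257 to 1515 in the Hoxb8 macrophages and 370 to 412 in the CAR macrophages. In the progenitors it was 0.92 to 1.32, with 7 of the 9 genes at 0, although Lyz2 stood above 150 FPKM there. The sum is carried by a few genes: S100a8, a calcium-binding protein of neutrophils, was at 4538 ± 2009 FPKM in the BMDM, 1242 ± 174 in the control-CAR and 165 ± 14.4 in the CAR macrophages (SD, n = 3). Not every gene kept the order of the sum. Mmp8, a neutrophil collagenase, was higher in the CAR (178 ± 3.67 FPKM) than in the control-CAR macrophages (71.9 ± 9.89), and Ly6g had its lowest macrophage level in the BMDM (7.12 ± 1.48). Of the 9, 7 were lower and 1, Mmp8, was higher (2 with library totals) in the CAR than in the control-CAR macrophages. The median log2 change was -2.83 against 0.064 for all genes, of which 41.9% were called higher and 36.8% lower. Without Retnlg, which had 1 count over the CAR and 13 over the control-CAR libraries, 6 of 8 were lower and 1 higher, with a median of -2.29. The part of the 9 genes in the Lyz2 result was not tested.

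Lyz1, the neighbouring lysozyme gene, followed Lyz2 in every group at a much lower level. Its values were 216, 175 and 199 FPKM in the BMDM and 15.2, 14.5 and 17.6 FPKM in the CAR macrophages. The CAR macrophages were below the control-CAR macrophages by 3.43 on the log2 scale (SE 0.10, adjusted p = 1.18e-15, edgeR), and the Hoxb8 macrophages were above the progenitors by 5.75 (SE 0.12, adjusted p = 1.61e-18, edgeR). Within a library Lyz2 was 35.1 to 39.1 times Lyz1 as a group mean, in all 5 groups. The coding sequences of the copies have 444 bases each, of which 422 are identical, with a longest identical run of 118 bases. The estimated counts of Lyz1 and Lyz2 were whole numbers in all 15 libraries, as were those of 94.4% to 96% of all genes in a library. How reads were divided between the copies was not tested. Of the upstream windows printed above, that of Lyz2 is 49 bases shorter. They were identical at 151 of the 199 aligned positions that hold a base of both genes (75.9%).

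Kit was high in the progenitors and low in all 4 macrophage groups. The progenitors had 115, 112 and 113 FPKM. The Hoxb8 macrophages had 5.33, 4.28 and 4.09 FPKM. The control-CAR macrophages had 4.4, 3.85 and 3.82 FPKM. Every macrophage library gave counts of Kit, at a small part of the progenitor level. The CAR macrophages had 5, 4.61 and 4.53 FPKM. The BMDM had 2.85, 4.07 and 4.27 FPKM. Among the macrophage groups the ranges overlapped, except that the CAR libraries lay just above the control-CAR and BMDM libraries. The Hoxb8 macrophages were 14.0-fold below the progenitors in the model (log2 change -3.80, SE 0.10, adjusted p = 4.78e-17 by edgeR's quasi-likelihood test, Benjamini-Hochberg adjusted) and 24.8-fold below them by mean FPKM. For BMDM against progenitors the modelled log2 change was -4.26 (SE 0.10, adjusted p = 1.34e-17, edgeR).

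Among the macrophages Kit differed by little, and by an amount that turned on the scaling. CAR against control-CAR macrophages gave a log2 change of -0.078 with TMM (SE 0.11, 95% interval -0.31 to 0.15, adjusted p = 0.522, edgeR), but 0.23 with library totals (not called). On log2(TPM + 1) it was called higher, at 0.40 (adjusted p = 0.00331, limma), and on quantile-normalised values lower, at -0.38 (adjusted p = 0.00219, limma). Kit was called higher in the Hoxb8 macrophages than in the BMDM (log2 change 0.46, SE 0.11, adjusted p = 0.00112, edgeR), although their FPKM overlapped, and the call was lost on log2(FPKM + 1), at 0.24. It was called lower in the CAR than in the Hoxb8 macrophages (log2 change -0.30, SE 0.11, adjusted p = 0.0163, edgeR). That call was lost without the third CAR library (adjusted p = 0.0514, edgeR) or the first Hoxb8 library (adjusted p = 0.146, edgeR), and with library totals the direction turned, to 0.043. On log2(TPM + 1) Kit was called higher in the CAR than in the Hoxb8 macrophages, at 0.26 (adjusted p = 0.0359, limma). Control-CAR against BMDM was not called (log2 change 0.24, adjusted p = 0.0660, edgeR), but was called without the second BMDM library (0.31) or the third (0.32).

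Cd34 divided the groups differently from Kit, since it was also high in the CAR macrophages. The progenitors had 107, 112 and 111 FPKM. The CAR macrophages had 39.8, 38.7 and 43.8 FPKM. The BMDM had 9.43, 9.85 and 8.65 FPKM. From progenitors to CAR macrophages to BMDM the ranges did not overlap. The control-CAR macrophages had 1.78, 1.89 and 2.09 FPKM. The Hoxb8 macrophages had 2.15, 1.94 and 1.53 FPKM. These last groups were the lowest and overlapped (log2 change -0.013, SE 0.14, not called). The CAR macrophages were 17.3-fold above the control-CAR macrophages (log2 change 4.11, SE 0.10, adjusted p = 8.00e-17 by edgeR's quasi-likelihood test, Benjamini-Hochberg adjusted), and higher in 3 of 3 libraries. They were 3.87-fold above the BMDM (log2 change 1.95, SE 0.079, adjusted p = 1.39e-13, edgeR) and 1.93-fold below the progenitors (log2 change -0.95, SE 0.070, adjusted p = 2.96e-10, edgeR), or 2.69-fold by mean FPKM. The Hoxb8 macrophages were below the progenitors by 5.05 on the log2 scale (SE 0.099, adjusted p = 5.92e-19, edgeR).

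Mast cell and basophil genes were also high in the CAR macrophages. Of 11 such markers 9 were in the table (Cpa3, Cma1, Mcpt4, Tpsb2, Ms4a2 and Fcer1a among them), and their summed FPKM was 3748 to 3984 in the CAR macrophages, 1562 to 1682 in the progenitors and 424 to 497 in the other 3 groups. Most of the sum was Cpa3 in the CAR macrophages (2221 ± 99.0 FPKM) and in the progenitors (1284 ± 56.6 FPKM). All 8 that were tested were higher in the CAR than in the control-CAR macrophages, where 41.9% of all genes were higher and 36.8% lower. Their median log2 change was 5.89 against 0.064 for all genes. Cma1 and Fcer1a had 3 and 1 counts over the control-CAR libraries, and the median of the 6 others was 4.72. Cma1 passed the filter on low values only through the CAR macrophages. Against the BMDM 7 of the 8 were higher and 1 was not called, where 39.2% of all genes were higher and 37.8% lower. Fcer1a, a chain of the high-affinity IgE receptor, was at 97.3 ± 2.43 FPKM (SD, n = 3) in the CAR macrophages, at 4 ± 0.565 in the BMDM and at 0 in the progenitors. Cma1, Mcpt4 and Tpsb2, proteases of mast cell granules, were likewise at 0 in the progenitors. Kit, which mast cells carry too, was not called between CAR and control-CAR macrophages. The summed FPKM of 7 endothelial markers was 59.0 to 62.1 in the CAR macrophages, 51.8 to 58.5 in the BMDM and 37.7 to 39.8 in the control-CAR macrophages. Emcn and Cldn5 were at 0 in both CAR groups. Of the 3 tested there, Vwf, the von Willebrand factor, was higher in the CAR macrophages (27.4 ± 0.696 against 8.55 ± 0.549 FPKM), Pecam1 was called lower (log2 change -0.19) at 32.6 ± 1.22 against 30.1 ± 1.46 FPKM, and Kdr was not called. The part of these genes in the Cd34 result was not tested.

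**Figure D2:**
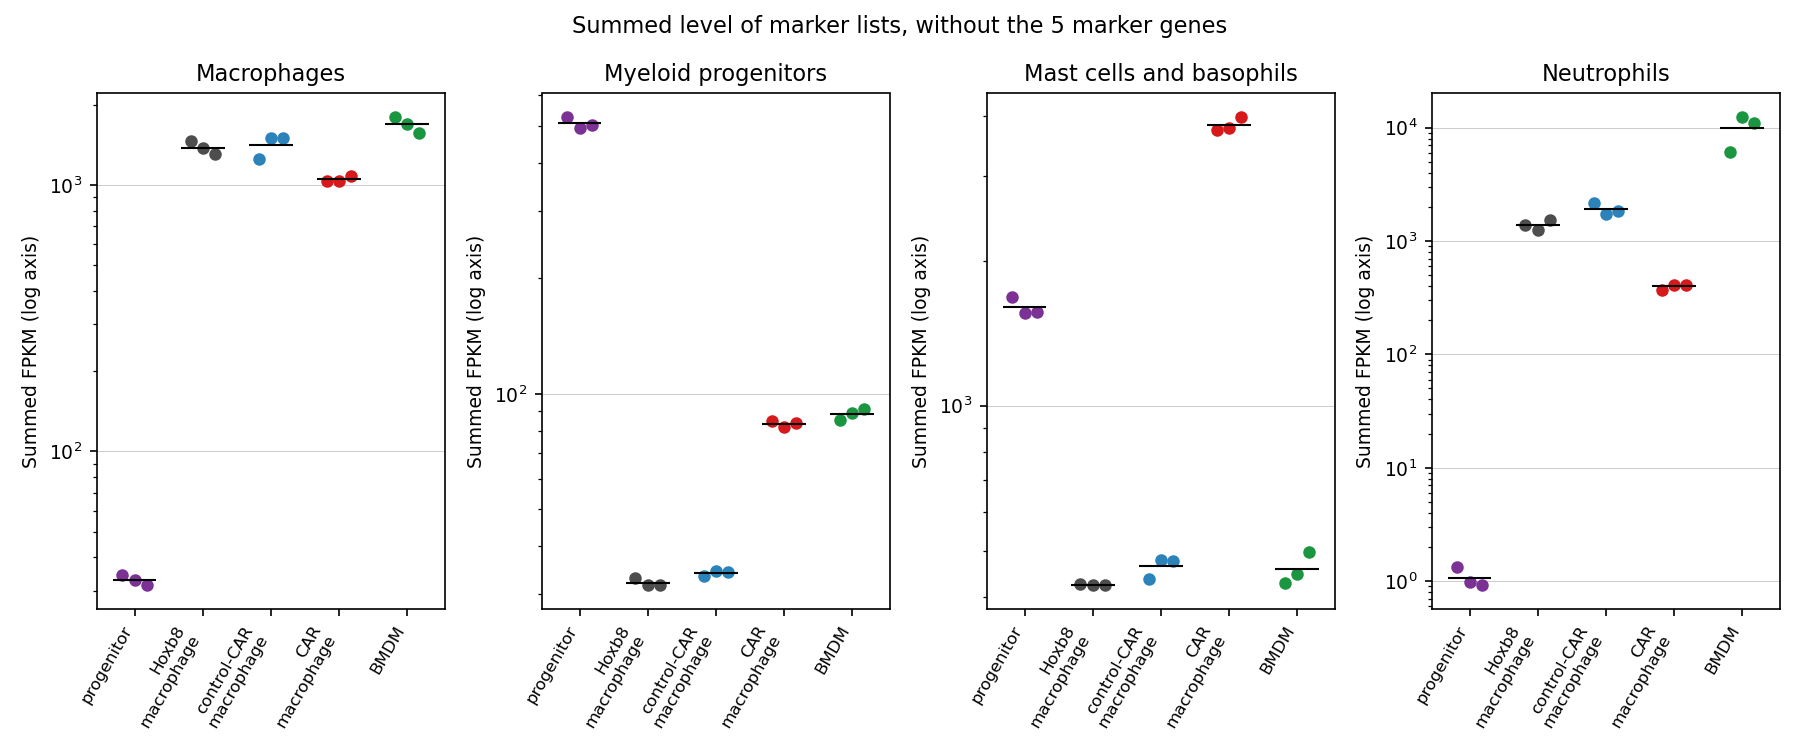
Summed FPKM of 4 marker lists in each library, on log axes, with Adgre1, Lyz2, Kit, Cd34 and Flt3 left out of the sums. Points are libraries, lines are group means of 3 libraries. The mast cell and basophil sum is highest in the CAR macrophages (3748 to 3984 FPKM), and the neutrophil sum is lowest in the progenitors (0.92 to 1.32 FPKM) and next lowest in the CAR macrophages (370 to 412 FPKM).

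Flt3 was the only one of the 3 progenitor markers that came close to nothing in some macrophages. The progenitors had 34.8, 35.8 and 37.8 FPKM, from 2035, 2141 and 2208 counts. The BMDM had 3.10, 1.97 and 2.60 FPKM, from 200, 120 and 166 counts. The CAR macrophages had 0, 0 and 1 count. In these 2 CAR libraries at 0, a level of up to 3 counts cannot be told from none. The control-CAR macrophages had 1, 2 and 2 counts. The Hoxb8 macrophages had 4, 0 and 1 counts. The CAR, control-CAR and Hoxb8 groups overlapped at the limit of detection, and BMDM and progenitors lay above them with no overlap. The progenitors were 14.1-fold above the BMDM as a share of counts (95% interval 12.9 to 15.5, counting error only), and the modelled log2 change of BMDM against progenitors was -3.16 (SE 0.13, adjusted p = 3.20e-14 by edgeR's quasi-likelihood test, Benjamini-Hochberg adjusted). With 5 counts in the Hoxb8 macrophages, the ratio of progenitors to them was 1284 (95% interval 550 to 3955, counting error only). The BMDM exceeded the Hoxb8 macrophages 90.8-fold (38.6 to 281) and the CAR macrophages, which had 1 count in all, 466-fold (83.2 to 18438). The ratio of Hoxb8 to CAR macrophages, 5.13, had an interval of 0.574 to 243, so a difference between them was not detectable at this depth.

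Dendritic cells also carry Flt3. The summed FPKM of 7 dendritic cell markers other than Flt3 was 142 to 158 in the BMDM. It was 60.8 to 64.4 in the CAR, 49.5 to 57.7 in the Hoxb8 and 37.3 to 57.9 in the control-CAR macrophages. In the progenitors, where Flt3 was highest, it was 0.70 to 0.89. Most of the BMDM sum was Ccr7, at 83.4 ± 5.73 FPKM, and Itgax, at 56.3 ± 7.80 FPKM. Zbtb46, a transcription factor of classical dendritic cells, was at 1.59 ± 0.156 FPKM in the BMDM and at 0.530 ± 0.185 in the Hoxb8 macrophages (SD, n = 3). Batf3, another transcription factor of these cells, went the other way, at 8.60 ± 1.45 and 17.5 ± 3.50 FPKM. The part of these genes in the Flt3 result was not tested.

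Counted over the 5 genes, the comparisons against progenitors had every gene called and those among macrophages fewer. Hoxb8 macrophages against progenitors had all 5 called, Adgre1 and Lyz2 higher and Kit, Cd34 and Flt3 lower, where 84.3% of all genes tested were called. BMDM, CAR and control-CAR macrophages against progenitors likewise had 5 called, with 87.3%, 85.6% and 84.1% of all genes called. CAR against control-CAR macrophages had 3 called, Cd34 higher and Adgre1 and Lyz2 lower, where 78.7% of all genes were called. The FPKM of the groups did not overlap there for 4 of the 5 (all but Flt3) and for 82.1% of all genes. CAR macrophages against BMDM had 4 called (Cd34 higher, Adgre1, Lyz2 and Flt3 lower) against a background of 76.9%. CAR against Hoxb8 macrophages had 4 called (Cd34 higher, Adgre1, Lyz2 and Kit lower) against 79.5%. Hoxb8 macrophages against BMDM had 4 called (Kit higher, Lyz2, Cd34 and Flt3 lower) against 70.3%, and control-CAR macrophages against BMDM 3 called (Lyz2, Cd34 and Flt3 lower) against 69.3%. Control-CAR against Hoxb8 macrophages had none of the 5 called by edgeR's quasi-likelihood test, 0 with an unadjusted p under 0.05, and 0 called by DESeq2 or limma, where 2.62% of all genes were called. These comparisons share groups and are not independent. With most genes called in 9 of the 10 comparisons, the number called among 5 is close to the background.

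**Figure D3:**
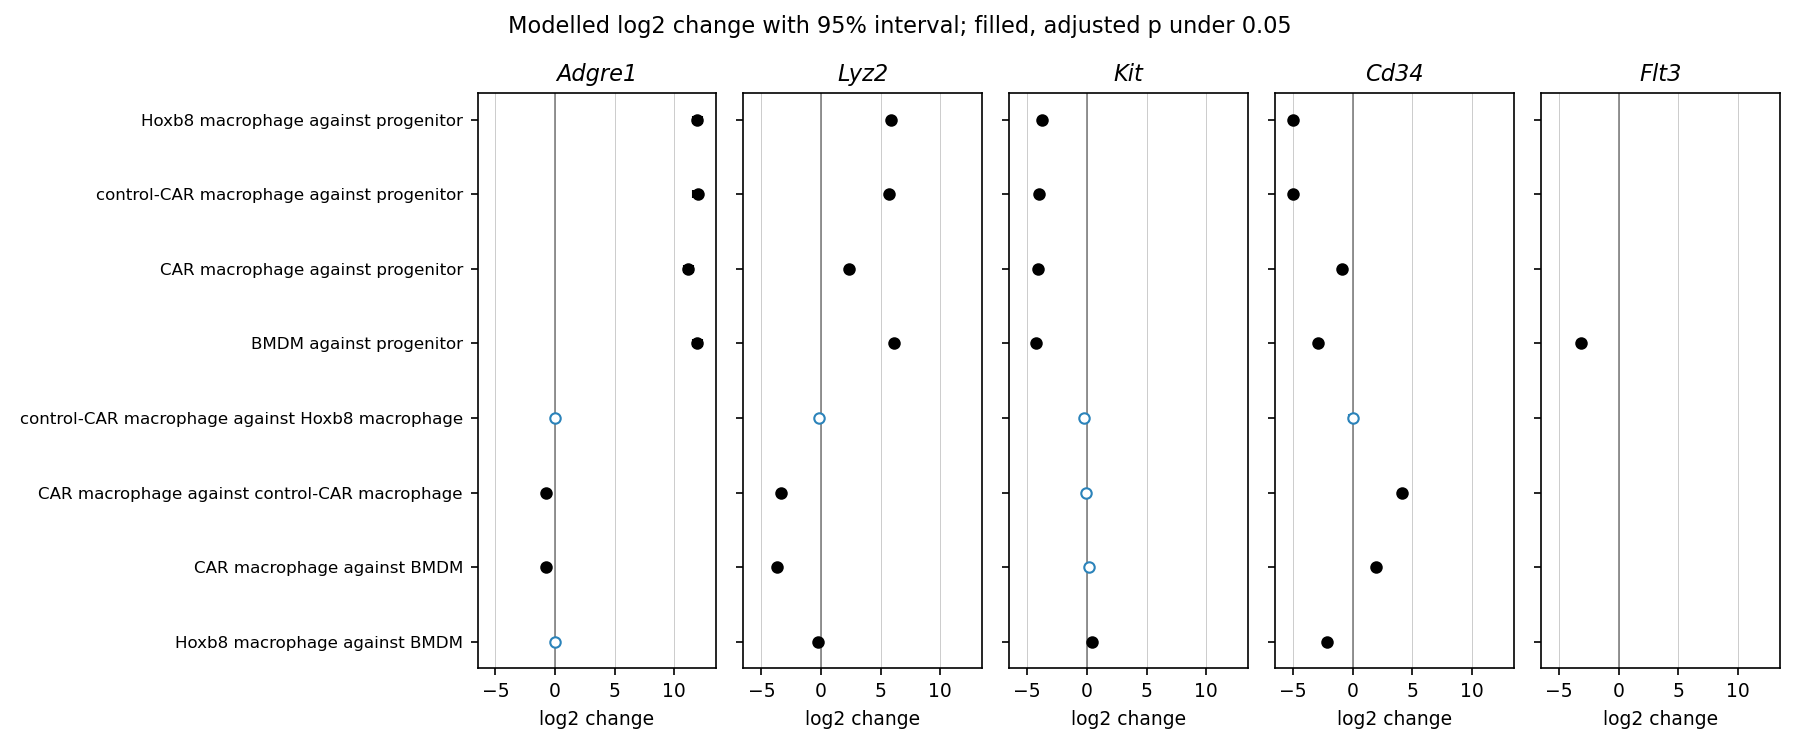
Modelled log2 change of each gene in 8 comparisons, first group against second, with the 95% interval (often narrower than the point). Filled points have an adjusted p under 0.05, open points do not, and no point is drawn where a group had at most 3 Flt3 counts per library on average. All 4 macrophage groups lie right of 0 for Adgre1 and Lyz2 and left of 0 for Kit and Cd34 against progenitors, and CAR against control-CAR macrophages lies at 4.11 for Cd34.

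Ratios of 2 genes within a library need no scaling between libraries, and they set the CAR macrophages apart in the same way. Lyz2 was 5.91 ± 0.768 times Adgre1 in the BMDM (SD, n = 3, as below). It was 4.96 ± 0.0716 times Adgre1 in the Hoxb8 macrophages and 4.44 ± 0.0679 times in the control-CAR macrophages. In the CAR macrophages it was 0.754 ± 0.0131 times Adgre1, so that the order of the macrophage markers was turned there. In the progenitors, where Adgre1 was close to 0, the ratio was 342 ± 61.1. Cd34 was 8.68 ± 0.880 times Kit in the CAR macrophages. It was 2.58 ± 0.657 times Kit in the BMDM and 0.968 ± 0.0359 times in the progenitors. In the control-CAR and Hoxb8 macrophages it was 0.481 ± 0.0718 and 0.410 ± 0.0400 times Kit. No progenitor library had the excess of Cd34 over Kit seen in all 3 CAR libraries (7.97 to 9.66). Adgre1 exceeded Cd34 591 ± 29.4 times in the control-CAR and 19.9 ± 1.08 times in the CAR macrophages.

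**Figure D4:**
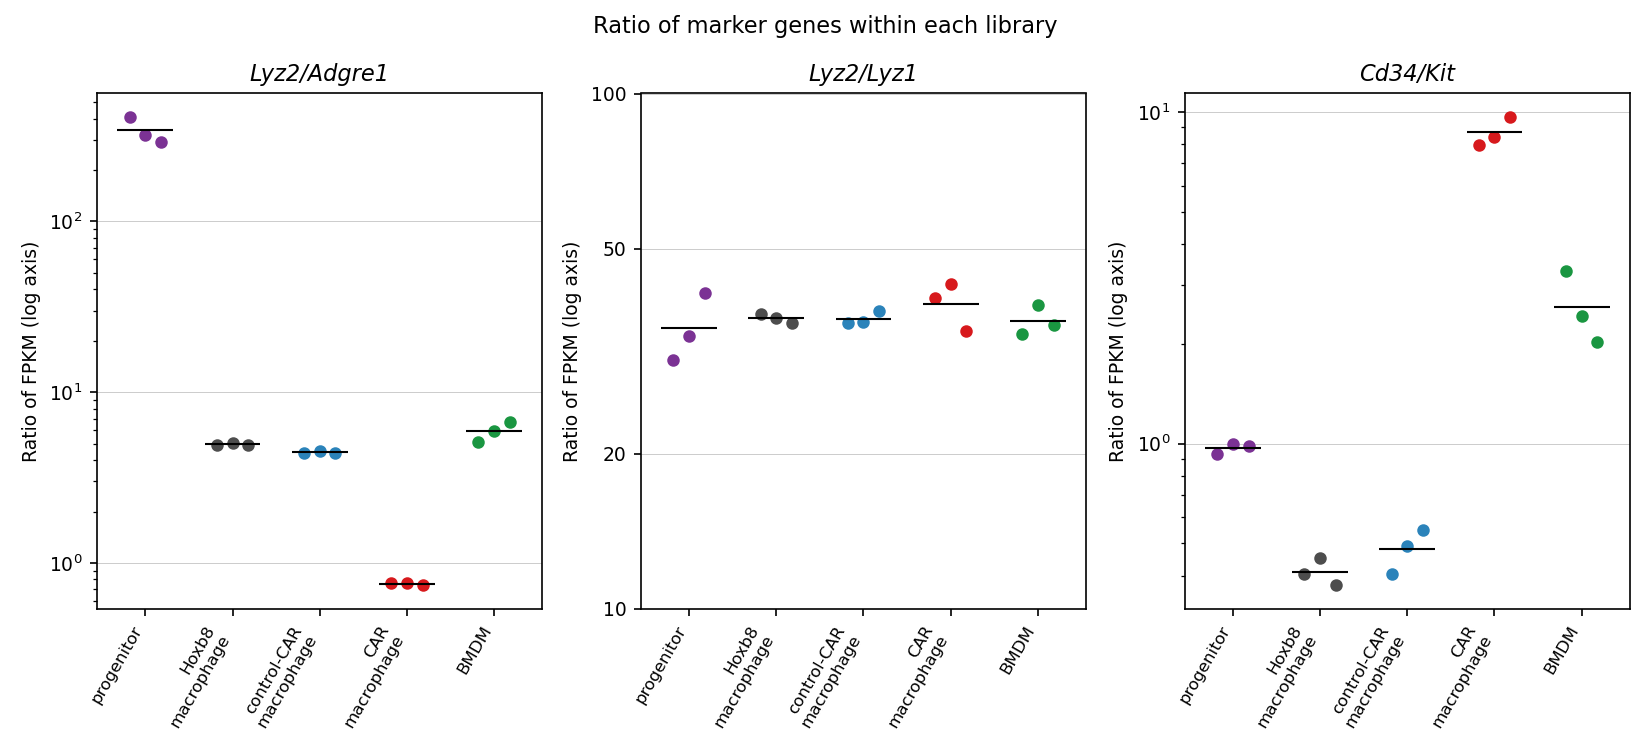
Ratio of FPKM of Lyz2 to Adgre1, of Lyz2 to Lyz1 and of Cd34 to Kit within each library, on log axes. Points are libraries, lines are group means of 3 libraries. The CAR macrophages have the lowest ratio of Lyz2 to Adgre1 (0.740 to 0.765) and the highest of Cd34 to Kit (7.97 to 9.66), while Lyz2 to Lyz1 stays near one level in all groups.

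Across the 15 libraries the members fell into patterns set mostly by the group means. On log2(FPKM + 1), Pearson's r over 15 libraries, which share their 5 groups, was -0.998 between Adgre1 and Kit and 0.836 between Adgre1 and Lyz2. Cd34 followed Kit with 0.742 and ran against Lyz2 with -0.917. The 3 genes most like Adgre1 were Fam20c, Nlrp3 and Ctsb (r of 0.999 each), of which Ctsb encodes the lysosomal protease cathepsin B and Nlrp3 an inflammasome sensor. Those most like Lyz2 were Fcrlb, Lyz1 and Sash1 (0.998, 0.998 and 0.997). Cdca7l, Sord and Hlf were most like Kit (0.998, 0.998 and 0.997), Gcat, Trip13 and Atp10a most like Cd34 (0.998, 0.997 and 0.997), and Aatk, Sla2 and Gmip most like Flt3 (0.996, 0.995 and 0.995). These are descriptions over few groups, drawn from 8223 candidate genes.

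Kit and Flt3 belong to the class III receptor tyrosine kinases, of which another member was high where they were low. Csf1r, through which CSF1 keeps macrophages growing, was at 0.497 ± 0.0351 FPKM in the progenitors and at 296 ± 12.3 in the Hoxb8 macrophages, higher by 10.04 on the log2 scale (SE 0.13, adjusted p = 1.99e-21, edgeR). In the CAR macrophages it was at 109 ± 0.948 FPKM against 303 ± 6.24 in the control-CAR macrophages (log2 change -1.78, SE 0.076, adjusted p = 1.94e-13, edgeR). Pdgfrb, a receptor for PDGF, was at 5.81 ± 0.199 FPKM in the CAR and 16.9 ± 1.51 in the control-CAR macrophages (log2 change -1.87, SE 0.090, adjusted p = 1.12e-12, edgeR). Pdgfra did not pass the filter on low values, with at most 0.91 FPKM in any library. Of the 4 tested members of this family of 5, Kit and Flt3 included, 2 were lower and none higher in CAR than control-CAR macrophages (on log2(TPM + 1) 1, Kit, was higher), with a median log2 change of -1.82 (-1.78 without Flt3, which had 1 and 5 counts) against 0.064 for all genes. The shares of all genes were 36.8% lower and 41.9% higher. Against progenitors the Hoxb8 macrophages had 2 of 4 higher and 2 lower, where 44.7% of all genes were higher and 39.6% lower. The 2 higher were Csf1r and Pdgfrb, of which Pdgfrb (0.33 with TMM) was lower with library totals (-0.50), leaving 1 higher.

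Among 6 ligands of these receptors, 4 were higher and 1 lower in the CAR than in the control-CAR macrophages, where 41.9% of all genes were higher and 36.8% lower. Of the 4, Kitl and Il34 passed the filter on low values only through the CAR libraries. The median log2 change was 2.44 over the 6 and 0.30 without those genes, against 0.064 for all genes. Kitl, the ligand of Kit, had 331 counts over the CAR libraries (1.17 ± 0.122 FPKM), 2 over the BMDM and 0 in the other 3 groups. Il34, a second ligand of Csf1r, was at 6.50 ± 0.379 FPKM in the CAR and 0.0567 ± 0.0289 in the control-CAR macrophages, from 509 and 4 counts. Pdgfa was at 14.6 ± 0.438 against 0.603 ± 0.145 FPKM, and Pdgfb at 2.89 ± 0.202 against 4.49 ± 0.552 FPKM. Csf1 was at 236 ± 4.31 FPKM in the Hoxb8 macrophages, 31.0 ± 2.11 in the BMDM and 3.17 ± 0.255 in the progenitors, so that it was higher than in BMDM by 2.92 (log2, SE 0.074, adjusted p = 2.34e-16, edgeR). Flt3l, the ligand of Flt3, lay between 3.97 and 7.88 FPKM as a group mean in all 5 groups. In Hoxb8 macrophages against progenitors 4 of the 6 ligands were higher and none lower, where 44.7% of all genes were higher and 39.6% lower. Of those 4, Pdgfa and Pdgfb had 7 and 0 counts over the progenitor libraries.

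The relatives of Adgre1 and Cd34 had other patterns. Of 5 tested adhesion receptors of the myeloid set (Adgre4, with at most 0.98 FPKM, did not pass the filter), 4 were called higher and only Adgre1 lower in CAR than control-CAR macrophages. The shares of all genes were 41.9% higher and 36.8% lower. One of the 4 calls, of Adgrg5, rests on 4 counts against 0, and this gene passed the filter only through the BMDM (340 counts). Without it 3 were higher and 1 lower, with a median of 0.70 against 0.064. Adgre5, which encodes CD97, was at 44.2 ± 2.02 FPKM in the CAR and 18.7 ± 1.03 in the control-CAR macrophages. Adgrg1, also called GPR56, was at 176 ± 2.38 FPKM in the progenitors and 6.61 ± 0.172 in the Hoxb8 macrophages, lower by 3.91 on the log2 scale (SE 0.11, adjusted p = 5.88e-17, edgeR), and Adgrg3 was lower by 1.99. Adgre1 was the 1 member of 5 that was higher in Hoxb8 macrophages than in progenitors. Among all genes 44.7% were higher and 39.6% lower there. Podxl and Podxl2, the relatives of Cd34, did not pass the filter, with at most 0.07 FPKM in any library.

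Other marker genes of macrophages and progenitors were counted from lists beside the 5. Of 19 tested macrophage markers, 18 were higher and none lower in Hoxb8 macrophages than in progenitors, with a median log2 change of 6.16 against 0.058 for all genes. Among all genes 44.7% were higher and 39.6% lower there. Of the 19, 8 had at most 3 counts a library, on average, in 1 of these groups, and the 11 others were all higher, with a median of 5.92. Trem2, a lipid-sensing receptor, was 1 of the 8, at 273 ± 10.2 FPKM against 0.0233 ± 0.0404. In CAR against control-CAR macrophages 4 of the 19 were higher and 11 lower, with a median of -0.35 against 0.064 (-0.96 without C1qa and C1qc, which had at most 3 counts a library, on average, in 1 of the groups). The shares of all genes were 41.9% higher and 36.8% lower. Marco, a scavenger receptor, was at 13 ± 0.780 against 325 ± 49.3 FPKM and Siglec1, a sialic acid receptor, at 0.397 ± 0.0153 against 2.82 ± 0.560 FPKM, while Lgals3 (galectin-3) was at 1124 ± 39.9 against 221 ± 13.9 FPKM. In Hoxb8 macrophages against BMDM 3 were higher and 13 lower, where 70.3% of all genes were called, with a median of -1.34 against -0.048. C1qa and C1qc, both among the lower genes, passed the filter on low values only through the BMDM. Without them 3 were higher and 11 lower, with a median of -1.10. C1qb, a chain of complement C1q, was at 0.490 ± 0.0557 against 63.1 ± 14.6 FPKM there, and Mertk, a receptor by which phagocytes take up dying cells, at 0.0833 ± 0.0231 against 4.15 ± 0.454 FPKM. C1qb and Mertk also passed the filter only through the BMDM.

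Of 21 tested progenitor markers, 15 were lower and 5 higher in Hoxb8 macrophages than in progenitors, with a median log2 change of -2.12 against 0.058. The shares of all genes were 39.6% lower and 44.7% higher. Without 7 genes of at most 3 counts a library, on average, in 1 of the groups, 12 of 14 were lower and 2 higher, with a median of -2.99. Cd27, 1 of those 7, and Hlf, 1 of the 12, passed the filter on low values only through the progenitors. Mpo, the myeloperoxidase of granulocyte precursors, was at 0.05 ± 0.02 against 119 ± 11.7 FPKM, and Ctsg, cathepsin G of the same granules, at 1.82 ± 0.0321 against 1976 ± 12.7 FPKM. The 2 higher genes among the 14 were Procr, at 684 ± 64.3 against 5.01 ± 0.196 FPKM, and Cd33, at 134 ± 14.4 against 26.3 ± 0.430 FPKM. In CAR against control-CAR macrophages 10 were higher and 6 lower, with a median of 0.35 against 0.064, so the number called, 16 of 21, was close to the share over all genes (78.7%). Cd27, Hoxa9 and Elane had at most 3 counts a library, on average, in at least 1 of these groups. Hoxa9, called higher, passed the filter on low values only through the CAR libraries. Without these genes 9 of 18 were higher and 6 lower, with a median of 0.26. Ly6a, which encodes the stem cell antigen Sca-1, was at 142 ± 6.10 against 1.5 ± 0.150 FPKM, Ctsg at 113 ± 4.62 against 2.79 ± 0.665 FPKM and Prom1, which encodes CD133, at 0.323 ± 0.0473 against 6.91 ± 0.723 FPKM. In Hoxb8 macrophages against BMDM 6 were higher and 14 lower, where 70.3% of all genes were called. The median was -1.12 against -0.048 (-0.50 over the 17 genes above 3 counts a library in both groups). Ly6a was at 1.56 ± 0.654 against 145 ± 6.40 FPKM there, and Mpo at 0.05 ± 0.02 against 20.6 ± 4.63 FPKM. In the progenitors themselves Ly6a had 3 counts over the 3 libraries and Prom1 was at 0.

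Downstream of Kit and Flt3, 17 genes of signalling were tested. In CAR against control-CAR macrophages 12 were lower and 3 higher with TMM, where 36.8% of all genes were lower and 41.9% higher. The median was -0.47 against 0.064. On log2(TPM + 1) the counts were 6 lower and 8 higher, where 16.4% of all genes were lower and 68.0% higher. Dok2, an adaptor that limits kinase signals, was at 10.8 ± 1.16 against 30.0 ± 0.896 FPKM (log2 change -1.81), Fyn, a Src-family kinase, at 4.58 ± 0.526 against 11.5 ± 0.629 FPKM (-1.62), and Ptpn6, the phosphatase SHP-1, at 66.7 ± 0.0781 against 116 ± 3.82 FPKM (-1.10). In Hoxb8 macrophages against progenitors 9 were higher and 3 lower with TMM, but 3 higher and 13 lower with library totals. All genes turned likewise, from 44.7% higher and 39.6% lower to 26.5% and 61.0%. Socs1, a feedback inhibitor of cytokine signals, was at 194 ± 6.73 against 2.07 ± 0.369 FPKM in that comparison, higher by 7.29 on the log2 scale (adjusted p = 3.76e-21, edgeR).

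The labels themselves were checked against the wider lists. The summed FPKM of 6 macrophage markers without Adgre1 was 1033 to 1802 in the 4 groups labelled as macrophages and 31.5 to 34.4 in the progenitors, where Mertk was at 0. Mertk was under 1 FPKM in the CAR, control-CAR and Hoxb8 macrophages and at 4.15 ± 0.454 FPKM in the BMDM. The sum of 4 progenitor markers without Kit, Cd34 and Flt3 was 494 to 527 FPKM in the progenitors, 82.1 to 91.1 in the CAR macrophages and BMDM and 31.7 to 34.5 in the control-CAR and Hoxb8 macrophages. The 6 fibroblast markers summed to 29.5 to 31.0 FPKM in the CAR macrophages, 15.7 to 17.6 in the BMDM and at most 1.75 elsewhere. Most of the CAR sum was Col1a2, a collagen chain, at 23.9 ± 0.700 FPKM against 1.25 ± 0.223 in the BMDM, and the 3 other tested fibroblast markers (Col1a1, Dcn and Lum) were lower in the CAR macrophages than in the BMDM. The 5 markers of lymphoid precursors summed to 74.3 to 76.8 FPKM in the CAR macrophages, 56.7 to 61.2 in the BMDM, 34.0 to 44.7 in the control-CAR, 36.4 to 41.1 in the Hoxb8 macrophages and 3.72 to 4.27 in the progenitors. Nearly all of it in the macrophages was Il7r, the interleukin-7 receptor (75.6 ± 1.22 FPKM in the CAR macrophages), while Dntt, an enzyme of antigen receptor joining, was at 0.02 ± 0.0346 in the CAR macrophages and 3.11 ± 0.270 in the progenitors.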

How the data were processed

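The data were bulk RNA-seq of 15 libraries, 5 groups of 3, grouped by title and by the labelled genotype, treatment and cell type. Per the labels' protocols, RNA was selected with oligo(dT) and reverse transcribed from random hexamers. Named in the submitters' processing notes are HISAT2, Bowtie2, RSEM 1.3.1, DESeq2 1.4.5 and GRCm38.p6. The annotation, the strand setting and the role of each tool were not given in the sources used here, so antisense reads cannot be told apart. The deposited table gave estimated counts, FPKM and TPM per library, all computed by the authors before deposit, per the file headers. Its 15 columns of averages were not used.

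Counts were rounded and tested in edgeR 4.0.16 (quasi-likelihood, TMM, 10 residual degrees of freedom, Benjamini-Hochberg over 11793 genes with 1 FPKM in 3 libraries), with all 10 pairs of groups from 1 fit. The counts of the 5 genes were whole in all 15 libraries. Alternatives were DESeq2 1.42.0, limma 3.58.1 on log2(FPKM + 1), log2(FPKM + 0.1), log2(TPM + 1) and quantile-normalised values, other scalings and filters, only the groups compared, a replicate block, and each replicate left out. The scripts were tested on simulated data. Precision is limited by 3 libraries a group and, for Flt3 in some groups, by 0 to 4 counts a library. Intervals of count ratios are exact and cover counting error only. The length that FPKM divides by, recovered from counts and FPKM where counts reached 100, varied between libraries by at most 4.59% for any of the 5 genes.

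The genes and gene lists were chosen with earlier results of these data known. Named from the lists were up to 4 called genes with the largest change in a comparison and all genes of the families of 6 or fewer (receptors, ligands, lysozymes, sialomucins). Genes named in marker sums are list members given by level. Procr and Cd33 are named as progenitor markers that were higher in Hoxb8 macrophages than in progenitors. Genes with few counts, or that passed the filter only through 1 group, are also named. Other list members enter counts and sums, and 1 listed marker is not reported here. The genes most like a marker were the 3 with the highest r among genes that reached a group mean of 10 FPKM. Upstream sequences are from RefSeq. Motifs were searched on both strands.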

Additional observations from a re-analysis of the deposited data

How the results depend on the processing

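Of 47 changes of the 5 genes between groups, 38 kept their direction and their side of the threshold under all 17 alternative settings run for each (11 general ones and 6 that leave out 1 library of the groups compared), including every call of Lyz2, Cd34 and Flt3. The 9 others were changes of Kit, Adgre1 or Cd34 among the macrophage groups, and the cause was not tested. Kit, CAR against control-CAR macrophages (-0.078), was 0.23 with library totals, 0.19 on log2(FPKM + 1), 0.22 on log2(FPKM + 0.1), and, called in opposite directions, 0.40 on log2(TPM + 1) and -0.38 on quantile-normalised values. Kit, Hoxb8 macrophages against BMDM (0.46), was not called by limma at 0.24, 0.30 and 0.11 on log2(FPKM + 1), log2(FPKM + 0.1) and log2(TPM + 1). Kit, CAR macrophages against BMDM (0.16), was called at 0.33 with library totals and at 0.29, 0.35 and 0.37 on the same 3 scales. Kit, CAR against Hoxb8 macrophages (-0.30), was -0.23 with the upper quartile, 0.043 with library totals and 0.043, 0.053 and 0.26 on those scales (the last called), and ranged from -0.37 to -0.18 with 1 replicate left out. Kit, control-CAR macrophages against BMDM (0.24), was called at 0.27 without the filter and at 0.45 on quantile-normalised values, was -0.031 on log2(TPM + 1), and ranged from 0.099 to 0.32 with 1 replicate left out.

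Adgre1, Hoxb8 macrophages against BMDM (-0.023), was 0.0070 without the filter, -0.18 with library totals and -0.35 on log2(TPM + 1), both called, and ranged from -0.13 to 0.14 with 1 replicate left out. Adgre1, CAR against Hoxb8 macrophages (-0.75), lost its call only on log2(TPM + 1), at -0.14. Adgre1, control-CAR macrophages against BMDM (0.016), was -0.0032 with the stricter filter, -0.11 with library totals, -0.036 with the upper quartile, -0.090 on both FPKM scales, -0.25 on log2(TPM + 1), where it was called, and -0.13 on quantile-normalised values, and ranged from -0.092 to 0.18 with 1 replicate left out. Cd34, control-CAR against Hoxb8 macrophages (-0.013), was 0.023 with library totals, 0.028, 0.044 and 0.041 on log2(FPKM + 1), log2(FPKM + 0.1) and log2(TPM + 1), 0.0019 on quantile-normalised values, and ranged from -0.14 to 0.098 with 1 replicate left out. The genes called in that comparison (309) were 470 with library totals, 97 with only those groups in the fit and 106 to 311 with 1 replicate left out.

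Pdgfrb, Hoxb8 macrophages against progenitors (0.33), was -0.50 with library totals, -0.47 on log2(FPKM + 1), -0.49 on log2(FPKM + 0.1) and -0.76 on log2(TPM + 1). No pairing of the samples by replicate number was seen, and the labels state none. Same-numbered deviations correlated at -0.26 to 0.081 over 30 pairs of libraries. In 21 of 60 cases a library correlated best with its own number. The fit with a replicate block moved no call of the 5 genes, and the genes called between CAR and control-CAR macrophages went from 9280 to 9204 with it. Depth limits Flt3 in the CAR, control-CAR and Hoxb8 macrophages, where no change between them can be given.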
